A study of Mus musculus with 2 samples.

Results

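A set of 40 type I interferon-stimulated genes was followed gene by gene in single mouse leukemia progenitors, out of 31053 genes in the deposited matrices. The 40 members were taken by symbol from a list, and all 40 have a row in both matrices. The cells come from a mouse acute myeloid leukemia named I1DN in the labels, which do not expand the name, and were sorted as cKit+ Cd11b-. A single library comes from mice given vehicle and another from mice given AG-120 (ivosidenib, an inhibitor of mutant IDH1), both for 5 days. The labels do not give the number, age or strain of the mice or a dose. The question named by the submitters is how far the response to AG-120 varies from cell to cell. With 1 library per group there is no test: every ratio compares 2 libraries, not 2 conditions, and every interval is a 95% interval that covers counting error only.

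Type I interferon binds the receptor chains encoded by Ifnar1 and Ifnar2, and the kinases Jak1 and Tyk2 then activate transcription factors such as Stat2. Stat2 and Irf9 act in a complex that binds the interferon-stimulated response element in the promoters of responsive genes. The products of these genes detect viral RNA, block its translation, or, as Usp18 does, switch the receptor off again. Blood progenitors are known to keep a low level of many of these genes without infection.

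The promoters of 3 members are shown because Isg15, Ifit1 and Rsad2 were among the strongest markers of interferon-high cells below. The sequences are the 150 bases before the start site in RefSeq (build GRCm38.p6), and capitals mark matches to GAAANNGAAA, a letter pattern of the response element, searched on both strands. On the opposite strand the pattern reads TTTCNNTTTC, its reverse complement.
Isg15, chr4:156200819-156200968, minus strand: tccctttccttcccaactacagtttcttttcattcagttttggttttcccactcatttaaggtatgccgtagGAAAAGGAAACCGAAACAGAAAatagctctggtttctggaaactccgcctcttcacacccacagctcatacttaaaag
Ifit1, chr19:34640739-34640888, plus strand: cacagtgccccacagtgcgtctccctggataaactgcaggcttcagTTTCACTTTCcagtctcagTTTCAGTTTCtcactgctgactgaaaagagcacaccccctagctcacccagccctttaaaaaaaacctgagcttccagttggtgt
Rsad2, chr12:26456453-26456602, minus strand: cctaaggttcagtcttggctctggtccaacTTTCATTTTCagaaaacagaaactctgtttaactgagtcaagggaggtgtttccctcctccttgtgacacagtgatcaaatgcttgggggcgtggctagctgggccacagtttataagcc
Isg15 carried 3 overlapping matches, which begin 78, 72 and 66 bases before the start site. Ifit1 carried 2 matches, 104 and 85 bases before it, and Rsad2 carried 1, at 120 bases. Of the 40 members, 30 had a promoter entry in the RefSeq table, each 300 bases long and reaching past the start site, and 13 of these 30 (43.3%) held the pattern. The share over all 27018 genes with an entry was 3.99%. A second pattern, TTCNNNGAA, a palindromic letter pattern, lay in 6 of the 30 (20%) and in 9.55% of all genes with an entry. A match is a match of letters and not a measured binding site.

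The libraries held different cells. Cells with fewer than 500 genes or over 10% mitochondrial UMIs (unique molecular identifiers, each standing for 1 captured RNA molecule) were removed, which left 3914 vehicle and 3756 AG-120 cells with medians of 13156.5 and 25681.5 UMIs. Kit was seen in 29.6% of vehicle and 17.3% of AG-120 cells thinned to 6500 UMIs, and Itgam, the gene of Cd11b, in 3.04% and 0.662%. Cells were grouped by clustering both libraries without the members and the other interferon genes on the lists used below. Interferon targets outside these lists, such as Tgtp1 and Tgtp2, were not left out. Erythroid-like cells, with Car1, Ermap, Klf1 and Blvrb, were 0.920% of vehicle cells (36 cells) and 87.0% of AG-120 cells (3266 cells). The adult beta globin gene Hbb-bt, also on the erythroid marker list, went the other way over whole libraries. It was seen in 13.5% of thinned vehicle and 7.75% of thinned AG-120 cells. Every other gene of that list was seen in a larger share of AG-120 cells, though Hba-a1 stayed rare, at 0.788% and 2.79%. The vehicle library was mostly stem and progenitor-like cells (1153, led by Cd34), megakaryocyte-like cells (1114, led by Pf4) and an unnamed cluster 0 led by Sox4 and Ltb (1346 cells). These 3 groups held 15, 33 and 9 AG-120 cells. Granulocyte-monocyte progenitor-like cells numbered 209 and 290, and neutrophil-like cells 32 and 30. Of the kept barcodes, 17 occur in both libraries, and without them the counts of members higher and lower given next stayed at 15 and 9.

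Between the libraries as a whole, the members split in both directions (the plot of levels by library). Genes with at least 100 UMIs in both libraries together count as measured, and a difference of 1.5-fold in either direction is called, a rule of size that tests nothing. Of 40 members, 36 were measured, of which 15 were higher in the AG-120 library, 9 were lower and 12 lay within 1.5-fold. Over all 11120 genes measured in the same way, 16.2% were higher and 31.2% lower. The median log2 ratio was 0.45 over the measured members and -0.17 over all measured genes. Mx1, Ifit3, Ifit3b and Ifi44 were too rare to be measured, with 89, 24, 13 and 3 UMIs in all.

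**Figure D1:**
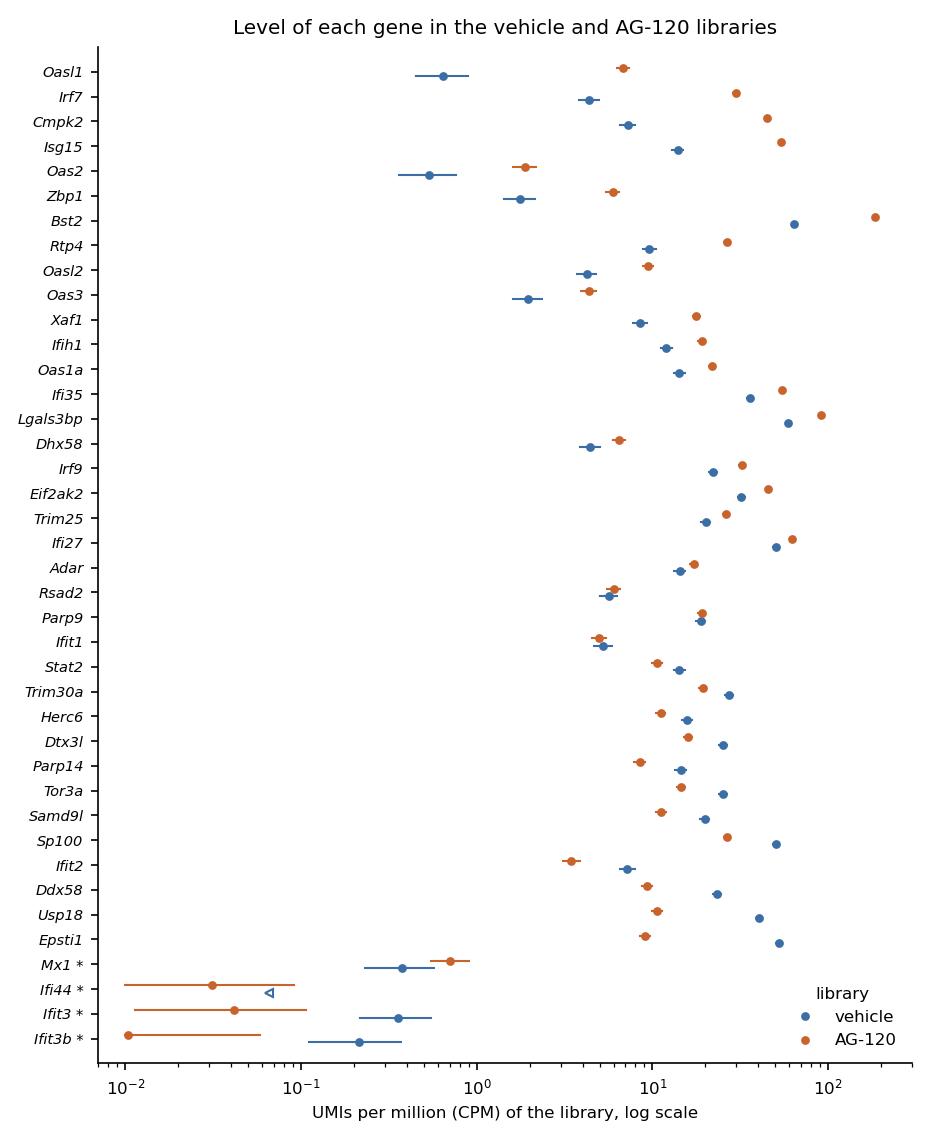
Level of each of the 40 genes as CPM (log axis) in the vehicle library (blue) and the AG-120 library (orange), ordered by ratio. Points are levels over all kept cells of 1 library and bars are 95% Poisson intervals of the count, cut at 0.01; an asterisk marks the 4 genes too rare to be measured and the open triangle the upper limit of a gene without a UMI. Oasl1, Irf7, Cmpk2 and Isg15 stand furthest to the AG-120 side, and Epsti1 and Usp18 furthest to the vehicle side.

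Among the transcription factors, Irf7 was called higher and Irf9 and Stat2 lay within 1.5-fold. Irf7 (chr7:141262706-141266481, GRCm38), the factor that amplifies interferon production and is itself induced by interferon, stood at 4.36 CPM (UMIs of the gene in 1000000 UMIs) in the vehicle library and 29.7 CPM in the AG-120 library. The AG-120 level was 6.83-fold higher (5.99 to 7.81). Irf9, the DNA-binding part of the complex with Stat2, stood at 22.1 and 32.2 CPM, a ratio of 1.45 (1.36 to 1.55). Stat2 stood at 14.2 and 10.6 CPM, a ratio of 0.749 (0.682 to 0.822). Irf9 was thus on the AG-120 side and Stat2 on the vehicle side.

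The genes of the ISG15 pathway went separate ways. Isg15 (chr4:156199424-156200818), a ubiquitin-like protein that is joined to other proteins, stood at 13.9 CPM in the vehicle and 53.8 CPM in the AG-120 library, 3.87-fold higher (3.59 to 4.18). Usp18 (chr6:121245906-121270917), the protease that removes ISG15 and also blocks the interferon receptor, stood at 40.5 and 10.6 CPM, so that the AG-120 level was 3.82-fold lower (3.55 to 4.12). A long noncoding gene, Gm44148, covers 15715 bases of the Usp18 model on the opposite strand, and whether the counting used strand is not given in the sources used here. Herc6, the mouse ligase that attaches ISG15, stood at 15.8 and 11.1 CPM and lay within 1.5-fold, with a ratio of 0.703. Of the enzymes outside the member list, the activating enzyme Uba7 stood at 54.6 and 16.4 CPM, 3.33-fold lower, while the conjugating enzyme Ube2l6 stood at 18.4 and 69.0 CPM, 3.75-fold higher. In thinned cells Isg15 was seen in 6.02% of vehicle and 20.7% of AG-120 cells (10.2% and 43.1% before thinning). Usp18 was seen in 22.1% and 6.01% of thinned cells (37.6% and 14.7% before thinning). Shares of cells include free RNA in the droplets: Ermap, seen in 55.9% of AG-120 cells, was seen in 2.16% of that library's 278 granulocyte-monocyte progenitor-like cells (median 20998 UMIs), and Pf4, seen in 30.9% of vehicle cells, in 6.57% of 198 such vehicle cells (median 17680 UMIs).

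The RNA sensors were divided as well. Ddx58, which encodes RIG-I, stood at 23.2 CPM in the vehicle and 9.36 CPM in the AG-120 library, so that the AG-120 level was 2.48-fold below it (2.28 to 2.71). Ifih1, which encodes MDA5, was higher at 12.0 and 19.1 CPM (1.59-fold), and Dhx58, which encodes LGP2, lay within 1.5-fold at 4.41 and 6.46 CPM. Zbp1, a sensor of Z-form nucleic acid, was 3.38-fold higher (2.72 to 4.22), at 1.76 and 5.94 CPM. Eif2ak2, the RNA-activated kinase that stops translation, and Adar, the RNA-editing enzyme that masks cellular RNA from these sensors, both lay within 1.5-fold, with ratios of 1.42 and 1.2. Thus 2 of these 6 genes were higher over all cells, 1 was lower and 3 lay within 1.5-fold. With states weighted alike the signs of Ifih1 and Zbp1 turned, on 7 and 0 UMIs in AG-120 megakaryocyte-like cells. The ratio of Ifih1 in that state was 0.794 (0.316 to 1.66).

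Over all cells the 5 members of the oligoadenylate synthetase family were on the AG-120 side. With states weighted alike the sign of Oas2 turned, but that value rests on 0 UMIs in AG-120 megakaryocyte-like cells, which carry most of the weight, against 10 in the vehicle, and reads as no direction. Oasl1 (chr5:114923240-114937915), which restrains translation of Irf7 mRNA, stood at 0.640 and 6.82 CPM, a 10.6-fold difference (7.61 to 15.3) and the highest ratio of the members. Its neighbour Oasl2 stood at 4.21 and 9.41 CPM, 2.23-fold higher. Oas2 stood at 0.533 and 1.87 CPM and Oas3 at 1.96 and 4.34 CPM, which are 3.51-fold (2.38 to 5.36) and 2.22-fold differences. These synthetases make the messenger that activates RNase L when they meet double-stranded RNA. Oas1a was 1.53-fold higher, but 43.4% of its 90-base words also occur in Oas1g transcripts, so reads could be split between these genes.

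The IFIT genes, Rsad2 and Cmpk2 did not move as a block. Ifit1 (chr19:34640871-34650009), which binds foreign RNA caps, stood at 5.23 and 4.96 CPM, a ratio of 0.95 (0.819 to 1.10). Ifit2, from the same cluster of genes on chromosome 19, stood at 7.2 and 3.46 CPM, 2.08-fold lower (1.80 to 2.42). Ifit3 had 20 and 4 UMIs and Ifit3b 12 and 1, and 35.1% of the words of Ifit3 also occur in Ifit3b, so their counts are uncertain. Rsad2 (chr12:26442746-26456452), the antiviral enzyme viperin, stood at 5.65 and 6.01 CPM, a ratio of 1.06 (0.925 to 1.22). Cmpk2, a mitochondrial nucleotide kinase gene that lies 12751 bases from Rsad2 and is read in the opposite direction, stood at 7.24 and 45.1 CPM, 6.23-fold higher (5.62 to 6.91). The UMIs of Ifit1 were spread differently over cells: it was seen in 0.816% of thinned vehicle and 2.26% of thinned AG-120 cells, at nearly equal CPM.

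The other effectors and regulators fell on both sides. Bst2, the tetherin that holds budding virus on the membrane, stood at 64.0 and 184 CPM, 2.88-fold higher, and Rtp4 at 9.57 and 26.5 CPM, 2.77-fold higher. Xaf1 (2.09-fold), Ifi35 (1.53-fold) and Lgals3bp (1.52-fold) were also higher. Epsti1 (chr14:77904239-78002657) had the lowest ratio of the measured members, at 52.7 CPM in the vehicle and 9.04 CPM in the AG-120 library, 5.82-fold lower (5.4 to 6.29). Sp100, a component of nuclear bodies, stood at 50.6 and 26.5 CPM, 1.91-fold lower. Samd9l, Tor3a, Parp14 and Dtx3l were 1.58-fold to 1.77-fold lower. Parp9, which works with Dtx3l as a complex, had a ratio of 1.01, although the gene models of Parp9 and Dtx3l overlap by 682 bases on opposite strands. In all, 16 of the 40 members overlap another gene model, Rtp4 and Herc6 over long transcripts on their own strand, so their counts are less certain. Ifi27, Trim25 and Trim30a lay within 1.5-fold.

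Set by cell state, Usp18 and Epsti1, the genes with the lowest ratios, stood highest in a state that the AG-120 library nearly lacked (the map of detection by state). In the vehicle library Usp18 stood at 67.4 CPM in cluster 0, 35.5 in stem and progenitor-like, 34.6 in megakaryocyte-like, 7.78 in granulocyte-monocyte progenitor-like and 4.24 in erythroid-like cells. Epsti1 had the same order at its ends, with 77.2 CPM in cluster 0, 52.1, 41.7 and 30.1 CPM in the next 3 states, and 1.70 CPM in erythroid-like cells. In the AG-120 library Usp18 stood at 10.1 CPM in erythroid-like, 12.1 in granulocyte-monocyte progenitor-like and 30.7 in megakaryocyte-like cells. Epsti1 stood there at 6.83, 31.7 and 24.5 CPM. The highest AG-120 levels were in small groups of cells. Usp18 peaked at 39.7 CPM in the unnamed cluster 16 (39 cells) and Epsti1 at 39.1 CPM in neutrophil-like cells (30 cells). In the vehicle library both genes were thus lowest in erythroid-like cells, the state that made up most of the AG-120 library. In a bulk of cells or a state, fewer expressing cells and less RNA per cell cannot be told apart from a CPM level. Over 6 vehicle states with at least 20 cells, 13 of the 36 measured members were highest in cluster 0, 13 in neutrophil-like cells and 4 in erythroid-like cells, while 17 were lowest in erythroid-like cells. Over all measured genes 22.5%, 14.6% and 27.9% were highest in these 3 states, and 26.8% were lowest in erythroid-like cells. In the AG-120 library the order differed: cluster 16, with 342 member UMIs, was highest for 12 members (25.7% of genes). Erythroid-like cells were highest for 7 members (20.4%) and lowest for 6 (14.7%), and granulocyte-monocyte progenitor-like cells were lowest for 11 (5.33%). The 4 members highest in vehicle erythroid-like cells were Oasl1, Ifi35, Bst2 and Lgals3bp. Bst2 stood there at 109 CPM against 47.2 CPM in vehicle cluster 0. The vehicle neutrophil-like group is 32 cells with 323 member UMIs.

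**Figure D2:**
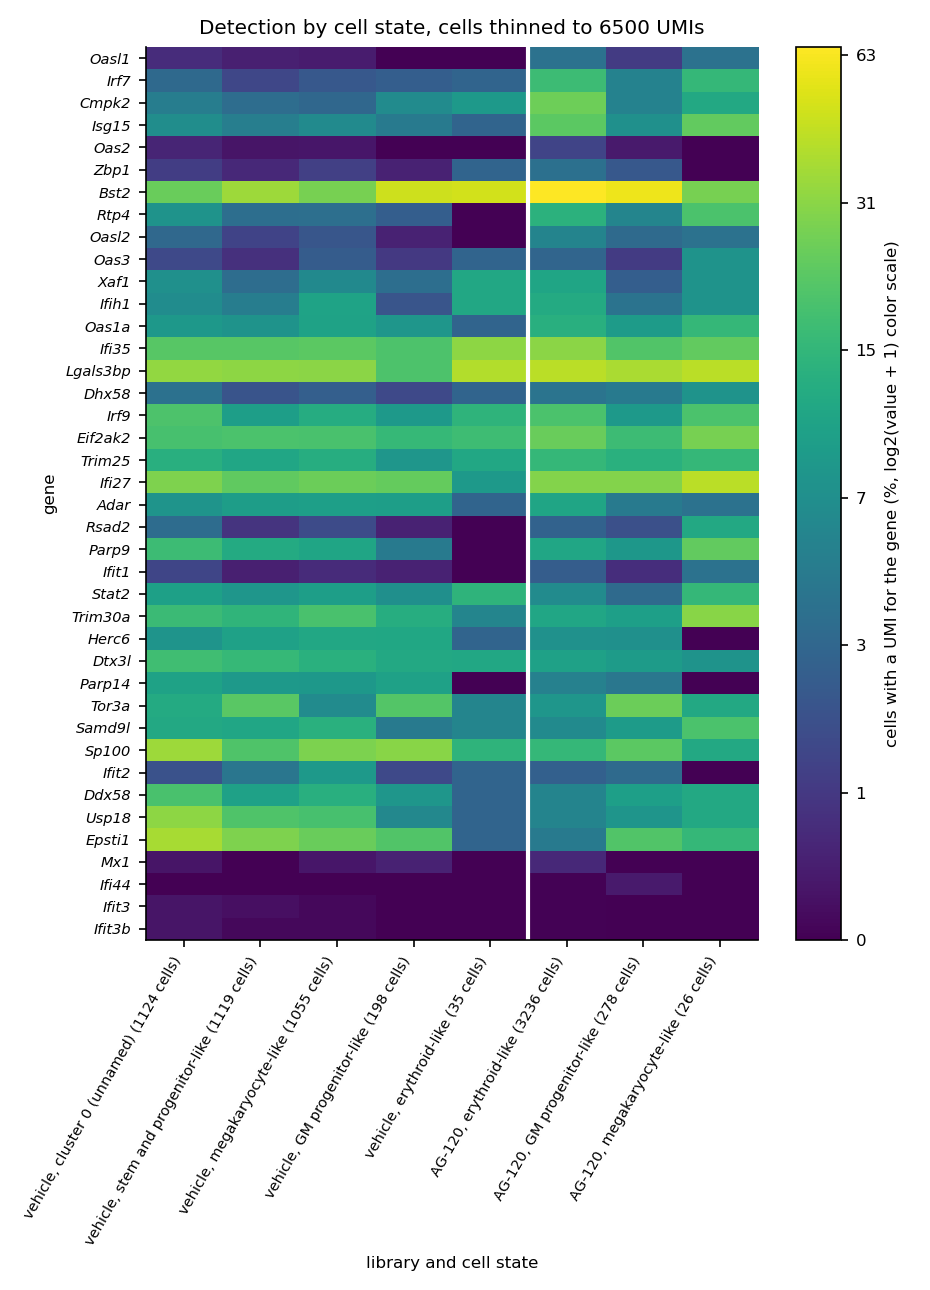
Share of cells with a UMI for each gene (colour, log2(value + 1) scale, in %) in 5 vehicle states and 3 AG-120 states, left and right of the white line, after each cell was thinned to 6500 UMIs. Usp18 and Epsti1 are brightest in vehicle cluster 0, at 31.4% and 37.5% of cells, and Isg15, Irf7 and Cmpk2 are brighter in AG-120 than in vehicle erythroid-like cells.

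Within erythroid-like cells the difference between the libraries pointed mostly one way. Of 36 members measured, 23 were higher in AG-120 cells and 1 was lower, against 11% and 8.29% of 10023 genes measured in this state. The interval lay wholly above 1 for 20 members (7.51% of genes) and wholly below 1 for 0 (9.09% of genes). The summed level of the 40 members was 554 CPM in vehicle and 958 CPM in AG-120 erythroid-like cells. The vehicle side rests on 36 cells with 653 member UMIs, and these cells had the highest median depth of any vehicle state with at least 20 cells, 30060 UMIs. No doublet caller was run, and the part of doublets in those 36 cells was not tested; none of them carries a barcode found in both libraries. With the interferon-high cells and the interferon-led cluster left out, 17 members were higher, against 11% of genes. With thinned cells 17 of 34 measured members were higher, against 15.5% of genes higher and 16.1% lower.

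Isg15 stood at 7.63 CPM (9 UMIs) in vehicle and 56.5 CPM in AG-120 erythroid-like cells, a ratio of 7.4 (3.90 to 16.2). Irf7 stood at 5.93 (7 UMIs) and 30.8 CPM, a ratio of 5.19 (2.51 to 12.9). Usp18 stood at 4.24 (5 UMIs) and 10.1 CPM, a ratio of 2.39 (1.02 to 7.38), so within this state it was on the AG-120 side. Epsti1, at 1.70 (2 UMIs) and 6.83 CPM, likewise had a ratio of 4.03 (1.11 to 33.3), and Ddx58, at 3.39 (4 UMIs) and 8.62 CPM, a ratio of 2.54 (0.989 to 9.35). Parp14, at 1.70 (2 UMIs) and 8.14 CPM, had a ratio of 4.80 (1.32 to 39.7). All 9 members lower over all cells had ratios above 1 in this state, from 1.03 for Ifit2 upward. The interval lay above 1 for Usp18, Epsti1 and Parp14, each on a few vehicle UMIs. How many of all genes lower over all cells also had a ratio above 1 here was not counted. The count of 9 therefore has no background to be read against. Cmpk2 was at 29.7 and 48.0 CPM and Bst2 at 109 and 189 CPM, ratios of 1.62 and 1.74 that are smaller than their 6.23 and 2.88 over all cells. Rtp4, with 3 vehicle UMIs, had a ratio of 10.8 (3.71 to 52.6). Ifit1 had 0 UMIs in vehicle and 459 in AG-120 erythroid-like cells, and the lower limit of its ratio was 1.67. Stat2 was the member called lower, at 16.1 and 10.7 CPM, with a ratio of 0.664 whose interval spans 1 (0.423 to 1.11).

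**Figure D3:**
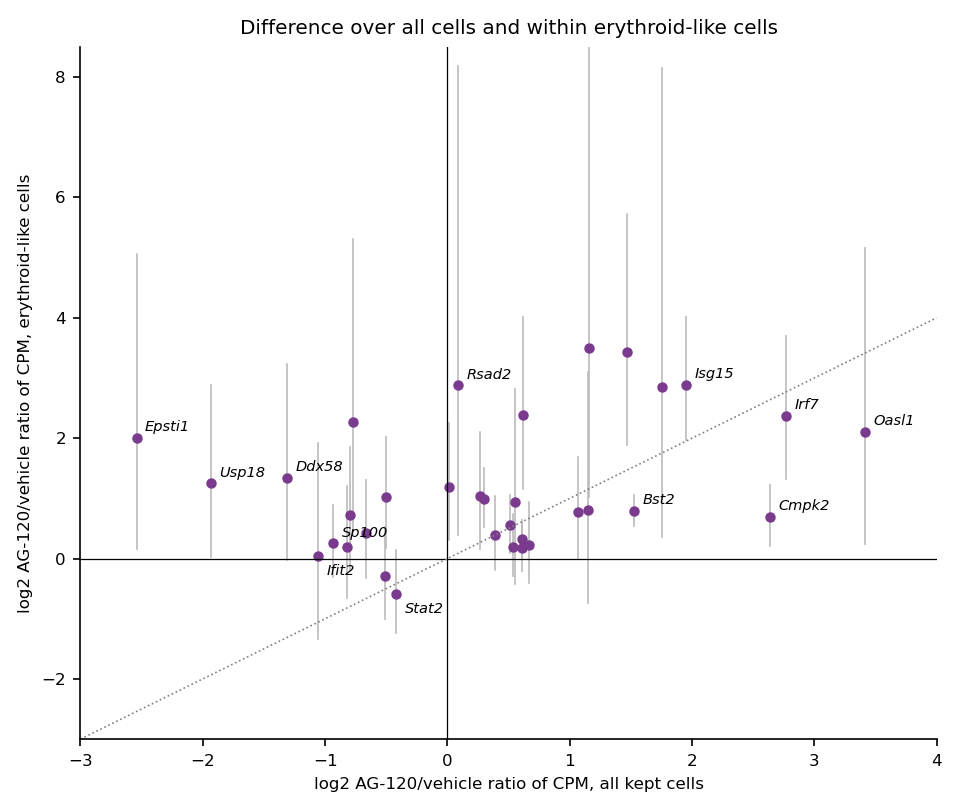
Log2 ratio of AG-120 over vehicle within erythroid-like cells (vertical axis, bars are 95% counting intervals) against the log2 ratio over all kept cells (horizontal axis) for members measured in both and with a UMI in vehicle erythroid-like cells. Epsti1, Parp14, Usp18 and Ddx58 lie at upper left, lower over all cells and higher within erythroid-like cells, and Stat2 lies lowest.

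Granulocyte-monocyte progenitor-like cells were present in number in both libraries, though 204 of the 209 vehicle cells lay in cluster 9 and 240 of the 290 AG-120 cells in cluster 10. Of 22 members measured there, 3 were higher (12.7% of 7386 genes) and 1 was lower (7.77%). Isg15 stood at 5.19 and 21.6 CPM, 4.17-fold higher (2.60 to 7.03), Lgals3bp at 33.2 and 73.6 CPM, 2.22-fold higher, and Usp18 at 7.78 and 12.1 CPM, 1.56-fold higher (1.01 to 2.46). Sp100 was lower, at 55.5 and 32.7 CPM, a ratio of 0.589 (0.484 to 0.715). The interval lay wholly above 1 for 4 measured members (32.3% of genes) and wholly below 1 for 1 (18.3%). Epsti1 was nearly equal at 30.1 and 31.7 CPM, as was Ddx58 at 13.2 and 14.6 CPM. At a coarser clustering the matching cluster could not be named.

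Among megakaryocyte-like cells, 1114 in the vehicle and 33 in the AG-120 library, 27 members were measured, of which 7 were higher (8.77% of 8712 genes) and 6 lower (19.6%). Isg15 stood at 15.9 and 75.6 CPM (4.75-fold, 3.27 to 6.72) and Rtp4 at 7.2 and 36.8 CPM (5.11-fold, 2.93 to 8.43). Ifi27, a protein of membranes, was 1.91-fold higher (1.39 to 2.57). Sp100 was lower, with a ratio of 0.532 (0.282 to 0.914), and Usp18 lay near equality at 34.6 and 30.7 CPM. The interval lay wholly above 1 for 3 measured members (9.07% of genes) and wholly below 1 for 1 (8.29%). Over the 3 states, Isg15, Irf7 and Rtp4 had an interval above 1 in every state. However, Irf7 had under 100 UMIs in the last 2 states and Rtp4 in granulocyte-monocyte progenitor-like cells. Sp100 was the member with an interval below 1 in 2 of the 3 states. The shares of all genes that pass these rules over several states were not counted, so no trait of the members is read from them. No member was measured in neutrophil-like cells under the same minimum.

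When the levels of states held by both libraries were averaged with the vehicle's state weights, the gap of the lowest members narrowed. The log2 ratio of Usp18 went from -1.93 to -0.14 and that of Epsti1 from -2.54 to -0.62. That of Cmpk2 went from 2.64 to 0.66 and that of Bst2 from 1.52 to 0.21, while Isg15 stood at 2.23 and Irf7 at 2.29, on 37 and 12 UMIs in AG-120 megakaryocyte-like cells. Oasl1 had 1 UMI there, Oas2 and Zbp1 0, and Ifih1 7, so no direction is read from their weighted values. The states used hold 35.5% of vehicle and 96.4% of AG-120 kept cells, and the megakaryocyte-like state carries 80.1% of the weight with 33 AG-120 cells, so these values are counted thinly. Cluster 0 and stem and progenitor-like cells, where vehicle Usp18 and Epsti1 stood highest, are not among these states. The vehicle level itself went from 40.5 to 29.4 CPM for Usp18 and from 52.7 to 39.1 CPM for Epsti1. Part of the narrowing thus lies on the vehicle side.

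Inside the AG-120 erythroid-like cells the members differed over 5 clusters, formed without any member. Cluster 4 (626 cells) had the highest Gata2 of the 5, at 89.0 CPM, a factor of early progenitors. It was highest for 27 of the 36 measured members and lowest for 0. Over all 11120 measured genes it was highest for 30% and lowest for 28.2%. Its leading genes against all other clusters included Ifitm1, Tgtp2 and Ifitm3, which were not left out of the clustering, beside the members Isg15 and Rtp4. The count of 27 is therefore not independent of how the cluster was formed. Isg15 stood at 82.6 CPM in cluster 4 and at 46.7 to 59.8 CPM in the others, and Rtp4 at 45.4 CPM against 23.3 to 27.8 CPM. Epsti1 had the widest span of the measured members, from 1.63 CPM in cluster 5 to 15.6 CPM in cluster 4, and Gata2 was at 6.48 CPM in cluster 5. Usp18 ranged from 6.46 CPM in cluster 2 to 18.0 CPM in cluster 4. Oasl1 was instead highest in cluster 5, at 13.7 CPM, and lowest in cluster 2, at 3.84 CPM. Cluster 4 also had the lowest median depth of the 5, 17373.5 UMIs, and its part in these levels was not tested.

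A small set of cells carried many members at once (the plot of core genes per cell). After thinning to 6500 UMIs, which left 3553 vehicle and 3625 AG-120 cells, a cell was called interferon-high when it had a UMI for at least 5 of 10 core genes (Isg15, Irf7, Ifit1, Ifit2, Ifit3, Rsad2, Oasl1, Oasl2, Cmpk2 and Ifi44). This held for 11 vehicle cells, 0.310% (0.155 to 0.553), and 44 AG-120 cells, 1.21% (0.883 to 1.63). The call is a range and not a cell type: another 8 vehicle and 34 AG-120 cells had 4 core genes, and 4 and 27 of those called had exactly 5. At a minimum of 7 the shares were 0.0844% and 0.0828%, and at 3 they were 0.844% and 6.57%, so the gap between libraries depended on the minimum. Core genes were also more widely seen in the AG-120 library, at a mean of 0.768 per cell against 0.225.

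**Figure D4:**
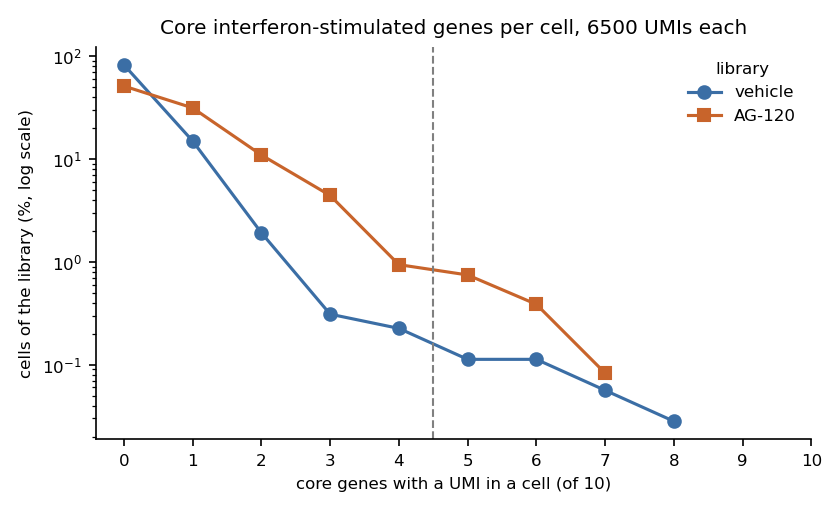
Share of cells (%, log axis) by the number of the 10 core genes with a UMI, in the vehicle (blue circles) and AG-120 (orange squares) library, after thinning to 6500 UMIs; counts with no cell are not drawn. The dashed line marks the minimum of 5, and the curves meet near 7 core genes, where 3 vehicle and 3 AG-120 cells had 7 or more.

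The interferon-high cells of the vehicle library were few but carried more member RNA. They held a mean of 68.4 member UMIs per thinned cell against 4.76 in other vehicle cells, and the AG-120 ones 35.0 against 5.91. They accounted for 4.27% of all member UMIs in the vehicle and 6.80% in the AG-120 library. These sums include the core genes that chose the cells, so an excess over other cells is built into the call. They describe the chosen cells, and the difference between the libraries was not tested. Of the 11 vehicle cells, 6 lay in cluster 0, 4 were megakaryocyte-like and 1 was stem and progenitor-like. Of the 44 AG-120 cells, 43 were erythroid-like and 1 was megakaryocyte-like. None of 35 vehicle erythroid-like cells was interferon-high, which allows a share of up to 8.57% by a limit of 3 counts (Clopper-Pearson upper limit 10.003%), and none of 278 AG-120 granulocyte-monocyte progenitor-like cells, which allows up to 1.08% (upper limit 1.32%). Depth and mitochondrial share were close to those of other cells, at median depths of 12414 against 13828 UMIs in the vehicle and 21481.5 against 26159 in the AG-120 library, and mitochondrial medians of 3.09% against 3.04% and 2.75% against 2.52%.

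Nearly all members with enough UMIs marked this state in both libraries (the plot of detection in interferon-high cells). For each core gene the cells were called again from the other 9, so that no gene helped to choose its own cells, which left 7 to 11 vehicle and 19 to 44 AG-120 cells for the genes named here. Among members with 100 thinned UMIs, 32 of 32 in the vehicle and 32 of 35 in the AG-120 library were at least 2-fold higher in interferon-high than in other cells, against 11.1% and 3.82% of all genes with as many UMIs. The median ratio over these members was 10.5 and 5.70, and over all such genes 0.889 and 0.955. Since the cells were chosen by interferon genes, these ratios describe which members share the state and are no test of it.

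In the AG-120 library Rsad2 was the strongest marker with at least 100 UMIs, at 275 CPM in interferon-high and 4.11 CPM in other cells, a ratio of 66.9 (46.6 to 95.1). Ifit1 followed at 174 and 3.81 CPM, a ratio of 45.8 (29.9 to 68.7). Usp18 came next, at 234 and 9.45 CPM, a ratio of 24.8 (18.6 to 32.7), and was seen in 31 of 44 interferon-high cells (70.5%) and in 5.22% of the others. Isg15 stood at 915 and 52.2 CPM (17.5-fold), Oasl1 at 79.3 and 5.82 CPM (13.6-fold), Oasl2 at 123 and 9.59 CPM (12.8-fold), Irf7 at 235 and 30.8 CPM (7.62-fold) and Cmpk2 at 340 and 44.5 CPM (7.65-fold). The rarer Mx1, a dynamin-like GTPase against viruses, was seen in 11 of 44 interferon-high cells (25%) and in 9 of 3581 others (0.251%). Ifi27 (1.31, interval 0.827 to 1.97), Irf9 (1.47, 0.799 to 2.48) and Ifit2 (1.81, 0.216 to 6.72) did not reach 2-fold. Ifit3, in the core, was seen in none of the 44 cells called without it, and Ifi44 in none of the 43 called without it.

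In the vehicle library Ifit1 and Rsad2 also had high ratios. Ifit1 stood at 1404 CPM in interferon-high and 3.30 CPM in other cells, a ratio of 426 (304 to 595), and 49.0% of its thinned UMIs came from the 8 cells called without it. Rsad2 had a ratio of 261 (181 to 373), Oasl1, with 21 thinned UMIs in all, of 177 (60.5 to 469), Oasl2 of 131 (78.3 to 210), and Isg15 of 92.3 (68.3 to 123). Ifit2, which did not mark the state in AG-120 cells, had a ratio of 11.6 (4.19 to 25.7), and Irf9 one of 6.49 (3.22 to 11.7). Usp18 stood at 517 and 42.6 CPM, a ratio of 12.2 (8.51 to 16.9), and was seen in 9 of 11 interferon-high cells and in 21.9% of the others. Epsti1, at 210 and 56.3 CPM, had a ratio of 3.73 (2.08 to 6.17). In the vehicle library Usp18 and Epsti1 were therefore common outside the interferon-high cells, which held 3.64% and 1.14% of their UMIs. In the AG-120 library interferon-high cells held 23.3% of Usp18 and 5.69% of Epsti1 UMIs. Such shares grow with the share of cells called, which was 0.310% in the vehicle and 1.21% in the AG-120 library. The ratios, which do not depend on that share in this way, were 24.8 for Usp18 and 4.91 for Epsti1 in the AG-120 library. The difference between the libraries in these shares and ratios was not tested.

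**Figure D5:**
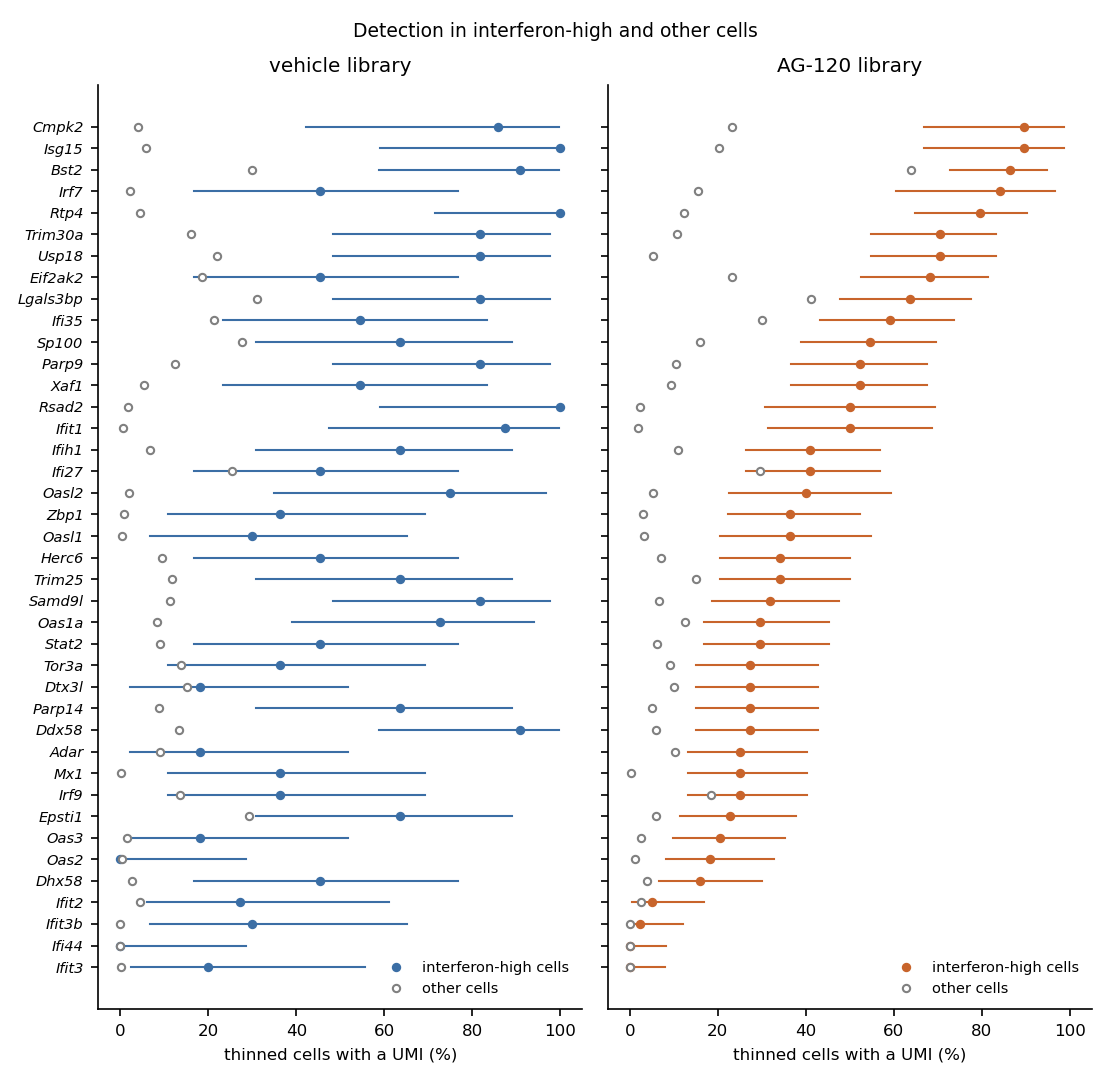
Share of thinned cells with a UMI (%) for each gene in interferon-high cells (filled, with 95% Clopper-Pearson bars) and other cells (open) of the vehicle library (left) and AG-120 library (right). In other cells Usp18 lies at 21.9% in the vehicle and 5.22% in the AG-120 library, and in interferon-high cells at 81.8% and 70.5%.

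Members were seen together in single cells more often than their separate shares give. Expected numbers of cells with both genes come from multiplying the 2 shares, and pairs with at least 5 expected cells are described. The median of observed over expected was 1.21 over 481 pairs in the vehicle library, with 414 pairs above 1, and 1.39 over 592 pairs in the AG-120 library, with 551 above 1. Over all pairs of the 11120 measured genes with as many expected cells the median was 1 in both libraries, with 52.6% of vehicle and 49.9% of AG-120 pairs above 1. The member pairs differ between the libraries, and the difference between libraries was not tested. Within AG-120 erythroid-like cells the members' median was 1.41 over 577 pairs, with 536 above 1, against 50.1% of all pairs. In all thinned AG-120 cells, Rsad2 and Usp18 were seen together in 35 cells against 5.83 expected (6-fold), and Ifit1 and Rtp4 in 55 against 10.8 (5.09-fold). In vehicle cells Rtp4 and Cmpk2 were seen together in 35 against 6.99 expected (5.01-fold) and Isg15 and Rtp4 in 50 against 10.2 (4.91-fold). Rsad2 with Usp18 and Rtp4 with Cmpk2 were the highest pairs of their libraries, so they are extremes and not typical pairs. Cells were thinned to the same depth for this, and cells of different states are pooled in the whole-library values.

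The co-detection values of Usp18 differed between the 2 libraries, but they are not on the same scale. In the AG-120 library its median over 33 pairs was 2.03, with 28 pairs at 1.5 or more. In the vehicle library the median was 1.19 over 33 pairs, with 7 at 1.5 or more. Observed over expected has a lower ceiling for a gene seen in more cells, and Usp18 was seen in 22.1% of vehicle and 6.01% of AG-120 cells. Cells with a Usp18 UMI carried a mean of 8.61 other members in the AG-120 library against 4.42 in cells without, a difference of 4.19. In the vehicle library the same means were 4.52 and 3.64, a difference of 0.88. For Isg15 the differences were 2.57 and 2.63, and for Ifit1 7.56 and 10.3. The change in these differences between libraries was not tested. Epsti1 had medians of 1.33 in the AG-120 and 1.11 in the vehicle library. Ifi27 had medians of 1.06 and 1.09. Bst2 had 1.06 and 1.03, a measure that cannot go far above 1 in AG-120 cells, where Bst2 was seen in 64.2% of them. The lowest of all AG-120 pairs was Ifit2 and Ddx58, with 2 cells against 5.90 expected, and that pair was named for being the lowest.

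Other genes of the pathway were followed over whole libraries from lists. No UMI was found for 13 of the 14 interferon ligand genes in either library, and Ifnz had 28 vehicle and 5 AG-120 UMIs. Of 9 measured receptor and signalling genes, 1 was higher (Ifngr1, a chain of the interferon gamma receptor, 2.85-fold) and 3 were lower: Ifnar1 at 23.4 and 9.82 CPM, Ifnar2 at 97.1 and 60.9 CPM and Jak1 at 145 and 76.2 CPM. Of 5 measured regulatory factors outside the members, 0 were higher and 3 lower (Irf2, Irf5 and Irf8, with Irf5 at 17.9 and 1.80 CPM). Of 7 brakes on signalling, 0 were higher and 3 lower (Socs3, Ptpn6 and Irf2bp2). Of 9 sensors and adapters of other pathways, 0 were higher and 5 lower, with Tmem173, which encodes STING, at 44.3 and 4.72 CPM. Of 40 measured other interferon-stimulated genes, 7 were higher and 16 lower, with a median log2 ratio of -0.27. Over all measured genes 16.2% were higher and 31.2% lower, so the counts of the receptor list and of the other interferon-stimulated genes are near the background.

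In interferon-high cells most of the other interferon-stimulated genes went along with the members. At least 2-fold higher were 27 of 34 in the vehicle and 21 of 31 in the AG-120 library. Over all genes with 100 thinned UMIs the shares were 11.1% and 3.82%. The lists that follow are too short to be read against these shares, and no trait of them is read from the counts. Of 9 sensors and adapters, 1 was 2-fold higher in each library (Myd88 in the vehicle and Mb21d1, which encodes cGAS, in the AG-120 library). Of 5 brakes, 1 in the vehicle (Ptpn2) and 0 in the AG-120 library were. Of the regulatory factors outside the members, 2 of 5 (Irf3 and Irf5) and 2 of 3 (Irf1 and Irf2) were. In vehicle interferon-high cells Irf3, Irf5 and Myd88 had 6, 4 and 5 UMIs. Their intervals span 1, at 0.765 to 4.57, 0.770 to 7.31 and 0.786 to 5.70. Those of Irf1 and Irf2 in the AG-120 library were 2.17 to 4.61 and 1.33 to 3.13. Ube2l6 was 5.92-fold and 3.68-fold higher. Of 6 markers of plasmacytoid dendritic cells, known as strong makers of interferon, 1 was seen in vehicle and 2 in AG-120 interferon-high cells. They summed to 69.9 CPM against 41.8 in other vehicle cells and to 49.0 against 22.6 in AG-120 cells, with Siglech, Ccr9, Cox6a2 and Ly6d at 0 in both. Tcf4, which was seen in 20.5% of all vehicle cells, gave the whole vehicle sum (5 UMIs) and 13 of the AG-120 UMIs, beside 1 of Irf8. All 5 conventional dendritic markers were at 0 as well. The erythroid list summed to 3010 CPM in AG-120 interferon-high cells and 2761 CPM in the others.

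Outside the members, 10 genes had the highest ratio in AG-120 interferon-high cells among 2102 genes with at least 20 UMIs there. They were Tgtp1 (14.4-fold), Igtp, Gbp7, Tgtp2, Hbb-bt, Ifi47, Irgm1, Ncoa7, Setdb2 and Rnf213 (4.40-fold). Tgtp1, Tgtp2, Igtp, Ifi47 and Irgm1 encode immunity-related GTPases known as targets of interferon gamma and type I interferon, and Hbb-bt is an adult beta globin gene whose 45 UMIs came from 5 of the 44 interferon-high cells. When members and listed interferon genes were kept in the clustering, 201 AG-120 cells and 1 vehicle cell formed a separate cluster. It was led by Isg15, Tgtp1, Tgtp2, Irf7, Igtp, Rtp4, Rsad2, Ifit1, Oasl2 and Ifi47. It held 5.35% of kept AG-120 cells and 39 of the 44 interferon-high ones. It also contained 41.5% of the Isg15 UMIs of thinned AG-120 cells, 41.8% of those of Usp18 and 67.5% of those of Ifit1, but 5.57% of those of Ifi27. These genes were open to the clustering and the cluster was not formed again without each, so these shares describe the cluster and test nothing.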

How the data were processed

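Single cells of 1 vehicle and 1 AG-120 library were analysed. The counts are UMI counts per gene and cell barcode, deposited by the authors as filtered 10x matrices and not normalized, per the file headers, which name software version 3.0.2. The submitters' processing notes name Cell Ranger 3.1.0, Seurat 4.0.4 and mm10 without a role. The labels' protocol names a 5′ kit and the design text a 3′ platform. Which end of transcripts was read is therefore unsettled, and levels were not compared between genes.

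Kept cells had at least 500 genes and at most 10% mitochondrial UMIs. Levels (CPM) are a gene's UMIs in 1000000 UMIs of the kept cells. A gene was measured with at least 100 UMIs over both libraries and called at 1.5-fold. Ratio intervals are exact conditional binomial and shares Clopper-Pearson, both at 95%. Cells were thinned to 6500 UMIs for shares and co-detection, which left out 361 vehicle and 131 AG-120 cells. No doublet caller was run, and an alternative leaves out the 5% of cells with most UMIs. Clusters (Leiden, resolution 1.0) were built without the members, the listed other interferon genes, and cell cycle, histone, mitochondrial, ribosomal and sex-linked genes. Interferon targets outside the lists were not left out. They were named from marker lists, with naming thresholds set after seeing the data. Cluster 14 (19 and 31 cells, low in UMIs) and cluster 16 (3 and 39 cells) stayed unnamed. The members and lists were chosen with earlier results of these data known. Named are the members (in full the core genes, Usp18, Stat2, Irf9, the ISG15 pathway and the 5 highest and 5 lowest by ratio), measured genes of the pathway lists, and the 10 genes outside the members with the highest ratio in AG-120 interferon-high cells, with sex-linked, ribosomal and mitochondrial genes and unnamed gene models not eligible. Other members and Ifnz, a ligand gene under the minimum, were named after their values were seen. Of 31053 gene IDs, 31011 were found in the GENCODE GRCm38 annotation, all 40 members among them, and 10 members had no entry in the RefSeq promoter table. The calculations were tested on simulated data. Tools were Python 3.11.15, NumPy 2.4.6, SciPy 1.17.1, pandas 2.3.3, scikit-learn 1.9.0, leidenalg 0.10.2, igraph 0.11.9 and Matplotlib 3.10.9.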

Additional observations from a re-analysis of the deposited data

How the results depend on the processing

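Of the 24 members called higher or lower, 21 kept their sign under every alternative run. The exceptions turned with the levels averaged over shared states by vehicle weights, to log2 ratios of -1.96 for Oas2, -0.23 for Ifih1 and -0.76 for Zbp1, on 0, 7 and 0 UMIs in the AG-120 cells with most of the weight, so no direction is read from them. At a 2-fold minimum 4 members were lower, against 9. Scaling by the median gene moved the members' median log2 ratio from 0.45 to 0.62. The vehicle share of interferon-high cells, 0.310%, was 0.844% at a minimum of 3 core genes, 0.0844% at 7, 0.588% without thinning and 0.0255% as the member-led cluster. The AG-120 share, 1.21%, was 6.57% at 3, 2.15% at 4, 0.0828% at 7, 6.44% without thinning, 0.296% with cells thinned to 3000 UMIs and 5.35% as that cluster. Within erythroid-like cells 0 members were lower at resolution 0.5, against 1. The cause of these shifts was not tested. Alternatives chosen after seeing the data were leaving out the shared barcodes, cluster 14, or the interferon-high and member-led cells, using thinned erythroid-like cells only, and the low-background set below. The first 2 left 15 members higher and 9 lower, and the next 2 lowered the count of members higher within erythroid-like cells from 23 to 17. With a set of 12 members each seen in under 5% of thinned cells, 17 vehicle cells (0.478%) and 53 AG-120 cells (1.46%) had at least 3, of which 10 and 31 were also interferon-high. No paired analysis was possible because each group has 1 library. With 1 library per group, differences between mice, preparations and treatment cannot be told apart.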
